A study of Mus musculus with 4 samples.

Results

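The proteasome genes were followed in RNAseq of 4T1 mouse breast tumors treated with a control splice modulating oligomer (Control SMO) or with an oligomer against the long form of the prolactin receptor (LFPRLR SMO). Members were the protein-coding genes of mm10 whose symbol is Psma, Psmb, Psmc, Psmd, Psme or Psmf followed by a digit, without the immunoproteasome genes Psmb8, Psmb9 and Psmb10. This gave 43 genes of 21951 protein-coding genes in the annotation. The series held 11238 genes with a transcript in at least 1 set of values. Of the members, 42 encode a subunit, an assembly factor, an activator or an inhibitor of the proteasome or a close copy of one. The other is Psmc3ip, a meiotic recombination protein named for its binding to Psmc3.

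4T1 is a transplantable mammary tumor line that arose in Balb/c mice. The cells were injected into the mammary fatpad of female Balb/c mice that carry EGFP under the Foxp3 promoter, 8 weeks old at injection, and the hosts kept their own immune cells. Both groups shared these features and differed in the oligomer, which was given for 12 days. RNA of 6 mice was combined per library, and there was 1 whole tumor library per oligomer and 1 library per oligomer from tumor cells sorted as Tregs by EGFP. No value therefore has a replicate, no SD or p-value can be given, and each ratio describes a pair of libraries. In whole tumor RNA, fewer cells of a type and less RNA per cell cannot be told apart.

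The proteasome is the barrel-shaped protease that degrades ubiquitin-tagged proteins in the cytoplasm and nucleus. Its core particle is a stack of alpha rings, which gate the entrance, and beta rings, which hold the protease sites. A regulatory particle caps the core, with a base of ATPases that unfold the substrate and a lid that takes off ubiquitin. Other caps, the activators, open the core without ubiquitin. Dividing and secretory cells depend on this machine, and tumors and immune cells share its genes, so the listed members mark no cell type in these samples.

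Most proteasome genes were modestly lower in the LFPRLR SMO tumor library than in the Control SMO library, and none differed by a factor of 2 on both measures used. The first measure was the summed FPKM (fragments divided by transcript length and sequencing depth) of a gene's assembled transcripts of at least 300 bases. The second was an exon-weighted FPKM. Each FPKM was multiplied by the number of the transcript's bases that lie in any annotated exon of the gene. The product was divided by how many bases the longest annotated transcript has, and the results were added. Transcripts assigned to no gene were included where they overlap such exons. The weight is therefore not the share of the longest transcript that is covered, and it can exceed 1, as for Psmc6 under Control SMO. The median log2 ratio of LFPRLR SMO to Control SMO was -0.44 over 39 members by FPKM and -0.47 over 38 members by exon-weighted value. All genes had medians of -0.09 and -0.15 on the same scales. The genes entering a ratio had a value of at least 1 in both libraries, and 0.1 was added to both values.

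By FPKM, 31 of 39 members (79.5%) were lower under LFPRLR SMO by any amount, where 55.3% of all genes were. By exon-weighted value, 33 of 38 members (86.8%) were lower, where 67.0% of all genes were. On both measures at once, 29 of 37 members (78.4%) were lower, where 47.6% of all genes were. These shares were above the background in each case, but the members share a library, and the sizes were mostly far below a factor of 2. The monocyte and macrophage markers moved the same way, except that Cd14 was higher by FPKM, with a log2 ratio of 0.43. All 12 of them were listed in both libraries, their summed FPKM was 625 under Control SMO and 412 under LFPRLR SMO, and their median log2 ratio was -0.60 by FPKM and -0.61 by exon-weighted value. For epithelial markers, 9 of 10 were listed, with summed FPKM of 293 and 302 and median log2 ratios of 0.13 and -0.05, and Krt5 was not listed. For fibroblast markers, 8 of 8 were listed, with summed FPKM of 751 and 749 and median log2 ratios of 0.11 and 0.22. For endothelial markers, 6 of 8 were listed, with summed FPKM of 42.4 and 34.3 and median log2 ratios of -0.14 and -0.26, and Tek and Vwf were not listed. Of 12 T cell markers 0 were listed in whole tumor, and of 10 Treg markers only Ikzf2 was. The part of such cells in the proteasome ratios was not tested.

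**Figure D1:**
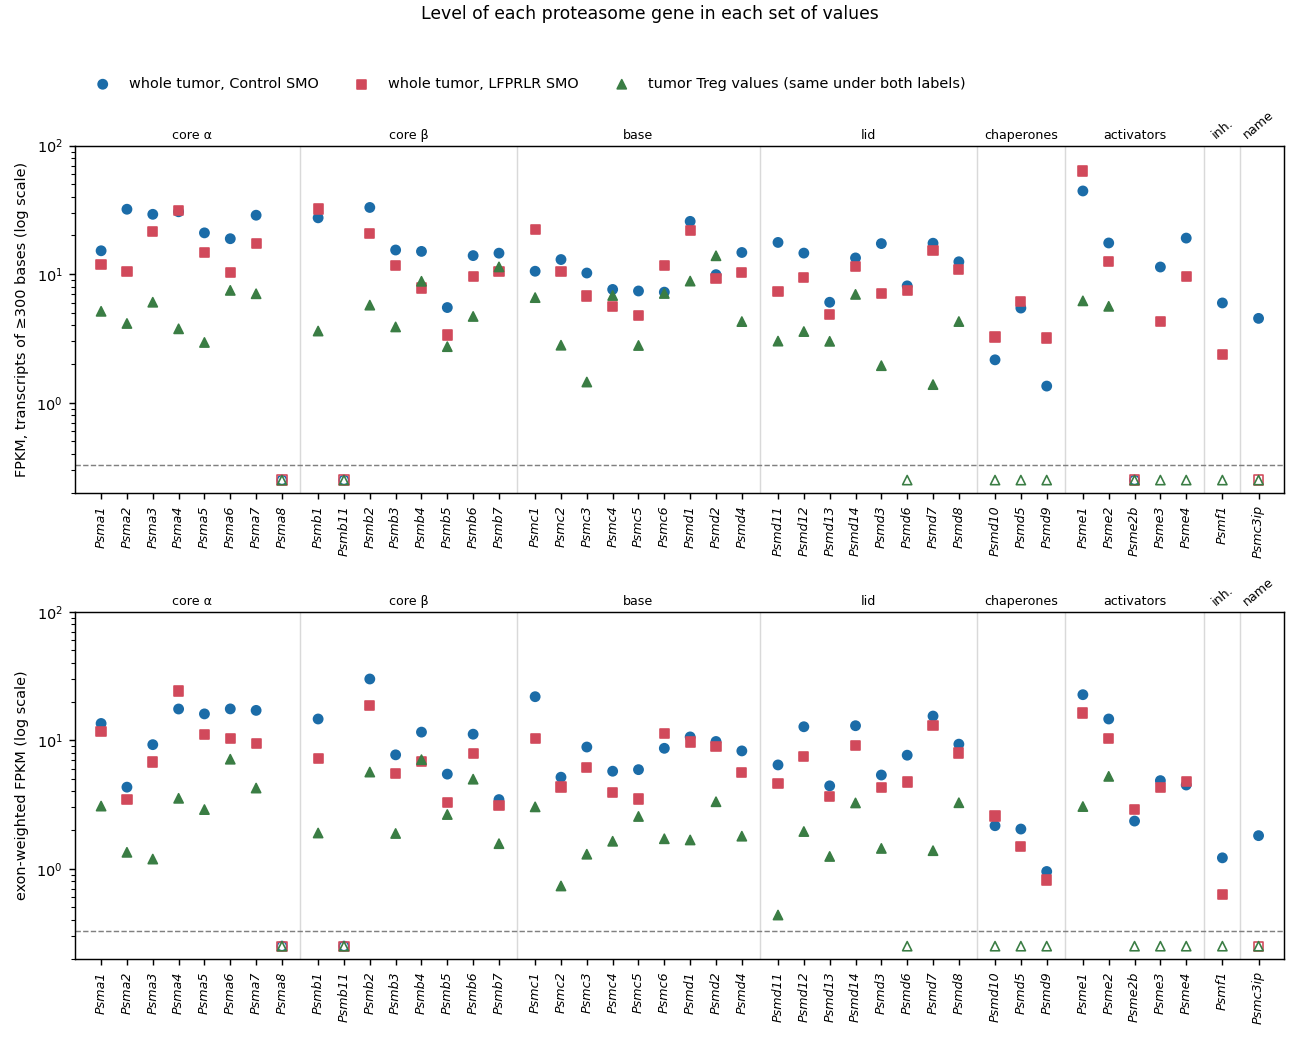
Level of each of the 43 members in whole tumor under Control SMO (circles), whole tumor under LFPRLR SMO (squares) and the tumor Treg values (triangles), 1 pooled library per point, as FPKM over transcripts of at least 300 bases (upper) and exon-weighted FPKM (lower), both on log axes. Open symbols under the dashed line mark members with no value or a value of 0, such as Psma8 and Psmb11. The squares lie just under the circles for most members.

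Past a factor of 2, the 2 measures named different members. By FPKM, 5 of 39 members were lower under LFPRLR SMO, namely Psma2, Psmd3, Psmd11, Psme3 and Psmf1, where 10.3% of all genes were. By FPKM, 2 of 39 members were higher, Psmc1 and Psmd9, where 11.0% of all genes were. By exon-weighted value, 2 of 38 members were lower, Psmb1 and Psmc1, where 3.04% of all genes were, and 0 were higher, where 0.772% were. On both measures together 0 of 37 members were lower and 0 were higher, where 1.57% and 0.288% of all genes were. Psmc1 is on opposite sides in the 2 counts. These counts lay near the background, and they give no set of members that stood apart. Psmc1 and Psmd3 fell outside the rule for naming and are named because of their values.

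**Figure D2:**
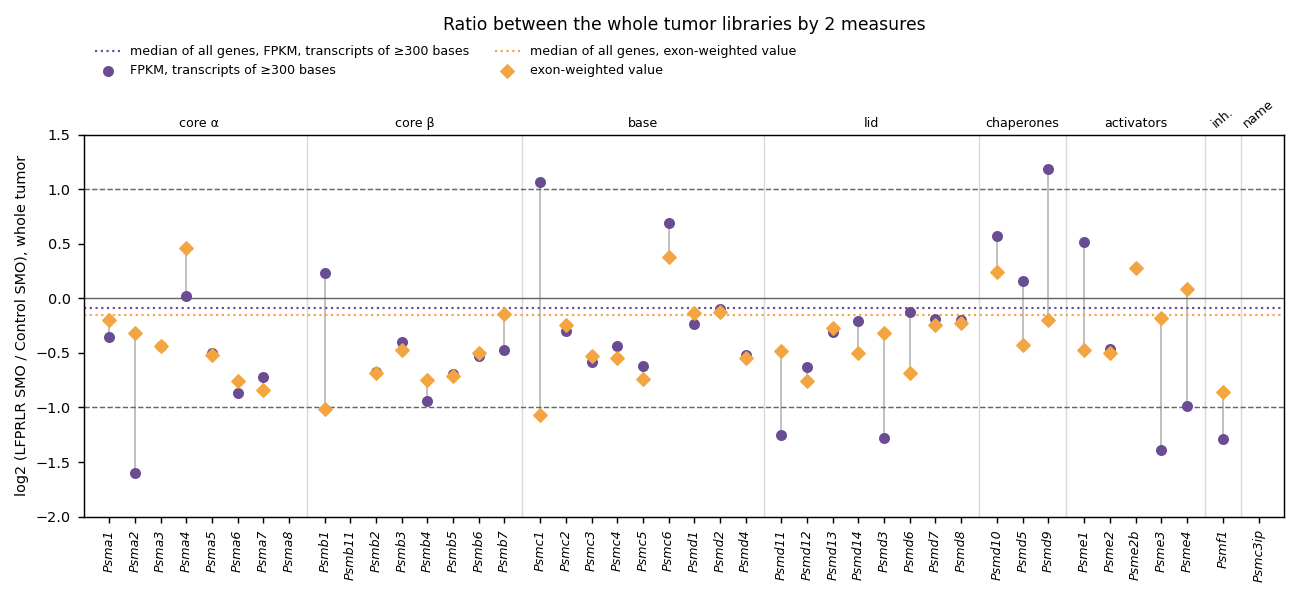
Log2 ratio of LFPRLR SMO to Control SMO in whole tumor for each member, by FPKM of transcripts of at least 300 bases (circles) and by exon-weighted value (diamonds), joined by a grey line. Dashed lines mark a factor of 2 and dotted lines the median of all genes (-0.09 and -0.15). Long grey lines, as at Psmc1, Psma2 and Psmd9, are members whose ratio depends on the measure, and Psmd9 and Psmf1 are drawn although an exon-weighted value is below 1.

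Promoters were read for 36 of the 43 members from RefSeq (GRCm38.p6), 250 bases before to 50 bases after each start. A site of the ETS family of transcription factors, CCGGAAG on either strand, was found in 13 of the 36 members (36.1%) and in 12.9% of 17492 protein-coding genes. The 13 include Psmc3ip, which is not a proteasome gene. The ETS site was found in 9 of 14 base and lid genes and in 1 of 12 core genes. The core of the antioxidant response element, TGACNNNGC on either strand, is bound by Nfe2l1, the factor known to raise proteasome genes when the proteasome is blocked. It was found in 6 of 36 members (16.7%) and in 14.8% of all genes. The CCAAT box was found in 14 of 36 members (38.9%) and in 42.3% of all genes. The share of members with the ETS letters was thus above that of all genes, while the other 2 shares were close to theirs. No motif contains another, although sites can overlap in a promoter, and a match describes the letters only.

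The windows below run from 60 bases before to 20 bases after the start, 5′ to 3′ on the strand of the gene. They are shown because these 6 base and lid promoters carry the ETS letters close to the start. Psmc2 carried the letters in each of its 2 promoters. The letters lay more than 60 bases before the start in Psmc6 and Psmd4, and were not found in Psmc4, Psmc5, Psmd1, Psmd8 or Psmd14. Capitals mark the ETS letters, which read CTTCCGG where the site is on the other strand.
Psmc1, chr12:100110142-100110221, plus strand: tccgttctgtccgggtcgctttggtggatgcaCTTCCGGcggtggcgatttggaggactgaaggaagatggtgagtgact
Psmd2, chr16:20651592-20651671, plus strand: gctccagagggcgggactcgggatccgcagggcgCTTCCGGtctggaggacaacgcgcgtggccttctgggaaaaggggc
Psmd6, chr14:14120926-14121005, minus strand: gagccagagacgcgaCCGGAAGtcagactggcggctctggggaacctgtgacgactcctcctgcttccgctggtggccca
Psmd11, chr11:80428555-80428634, plus strand: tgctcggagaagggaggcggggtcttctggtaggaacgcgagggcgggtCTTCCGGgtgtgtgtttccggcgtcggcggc
Psmd12, chr11:107479468-107479547, plus strand: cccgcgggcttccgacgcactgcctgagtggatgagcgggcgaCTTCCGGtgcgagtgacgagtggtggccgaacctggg
Psmd13, chr7:140882334-140882413, plus strand: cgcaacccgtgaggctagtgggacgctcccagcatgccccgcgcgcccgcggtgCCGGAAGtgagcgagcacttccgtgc
In these 6 promoters the letters began between 45 bases (Psmd6) and 6 bases (Psmd13) before the start.

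For the catalytic gene Psmb7 no promoter was available to read. The catalytic genes Psmb5 and Psmb6 carried no ETS letters and did carry the antioxidant response element core, shown here in capitals in windows of the same size.
Psmb5, chr14:54617976-54618055, minus strand: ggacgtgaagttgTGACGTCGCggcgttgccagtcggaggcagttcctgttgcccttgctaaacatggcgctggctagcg
Psmb6, chr11:70525297-70525376, plus strand: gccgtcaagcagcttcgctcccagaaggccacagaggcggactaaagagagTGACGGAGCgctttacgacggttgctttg
The letters began 47 bases before the start in Psmb5 and 9 bases before it in Psmb6. The median exon-weighted log2 ratio was -0.38 over 12 members with ETS letters and -0.47 over 20 members without.

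The alpha ring genes were among the higher members. Of the 8 alpha genes, 7 were listed, at 15.2 to 32.0 FPKM under Control SMO and 10.3 to 31.1 FPKM under LFPRLR SMO. Their median log2 ratio was -0.50 by FPKM and -0.44 by exon-weighted value, and 6 of 7 were lower on each measure. Psma4 was the member that was not.
Psma2 (chr13:14613240-14674236) was listed at 32.0 FPKM under Control SMO, 10.5 under LFPRLR SMO and 4.13 in the Treg values. The log2 ratio of its levels was -1.60 by FPKM and -0.32 by exon-weighted value (4.32 and 3.45). The gene was broken into 2 transcripts under Control SMO, and 2 overlapping transcripts with all 7 introns between them were found under LFPRLR SMO. The FPKM of pieces that lie end to end are added, so its FPKM ratio is not a ratio of the same bases. Over the 793 exon bases covered in both libraries the log2 ratio was -0.63.
Psma4 (chr9:54950790-54958030) was listed at 30.6 FPKM under Control SMO, 31.1 under LFPRLR SMO and 3.76 in the Treg values. The log2 ratio was 0.02 by FPKM and 0.46 by exon-weighted value. With Control SMO only 3 of its 8 introns were found. A 265-base piece at 26.2 FPKM under LFPRLR SMO is too short for the FPKM measure, and with transcripts of any length the log2 ratio was 0.903.
Psma6 (chr12:55384222-55418454) and Psma1 (chr7:114264606-114276118) were the lowest listed alpha genes under Control SMO. Psma6 was at 18.9 FPKM under Control SMO, 10.3 under LFPRLR SMO and 7.48 in the Treg values, a whole tumor log2 ratio of -0.86 by FPKM and -0.76 by exon-weighted value. Psma1 was at 15.2, 11.9 and 5.14 FPKM in the same order, with log2 ratios of -0.35 and -0.20. Both genes were assembled in 1 piece in all 3 sets of values. Psma7 was at 28.8 FPKM under Control SMO and 17.4 under LFPRLR SMO, and its log2 ratios of -0.72 and -0.84 were close on the 2 measures. Psma3 and Psma5 were also lower on both measures, with log2 ratios of -0.43 and -0.44 for Psma3 and -0.50 and -0.52 for Psma5. Psma8, the form of the alpha ring used in male germ cells, had no transcript in any set.

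The beta ring genes had the lowest median ratio of the groups by exon-weighted value. Of the 8 beta genes, 7 were listed, and their median log2 ratio was -0.53 by FPKM and -0.69 by exon-weighted value. On the exon-weighted scale 7 of 7 were lower under LFPRLR SMO.
The protease sites of the constitutive proteasome are in Psmb5, Psmb6 and Psmb7. Psmb5 (chr14:54614119-54618022), the chymotrypsin-like site, was at 5.50 FPKM under Control SMO, 3.37 under LFPRLR SMO and 2.73 in the Treg values. It was the lowest listed core gene by FPKM in all 3 sets. Its whole tumor log2 ratio was -0.69 by FPKM and -0.71 by exon-weighted value. Psmb6 (chr11:70525367-70527858), the caspase-like site, was at 13.9 FPKM under Control SMO, 9.63 under LFPRLR SMO and 4.69 in the Treg values, with log2 ratios of -0.53 and -0.50. Both were assembled in 1 piece in each set, and their ratios were nearly the same on the 2 measures.
Psmb7 (chr2:38588036-38644087), the trypsin-like site, was at 14.6 FPKM under Control SMO, 10.5 under LFPRLR SMO and 11.4 in the Treg values. Its log2 ratio was -0.47 by FPKM and -0.15 by exon-weighted value. It was the lowest core gene by exon-weighted value in both whole tumor libraries, at 3.46 and 3.11, a rank that depends on its annotated length. Over the exon bases covered in both libraries it was at 8.10 and 4.80, above Psmb5 at 5.50 and 3.37. Assembled transcripts covered 20.6% of its longest annotated transcript of 2849 bases under Control SMO and 84.3% under LFPRLR SMO, and over the exon bases covered in both the log2 ratio was -0.74. The 3 protease genes were thus all lower under LFPRLR SMO on both measures, by less than a factor of 2.
Psmb2 (chr4:126677630-126709714), a subunit without a protease site, was at 33.0 FPKM under Control SMO, 20.7 under LFPRLR SMO and 5.74 in the Treg values. This gave a log2 ratio of -0.67 by FPKM and -0.69 by exon-weighted value, and it was in 1 piece in each set. Psmb1 (chr17:15475021-15499751), also without a protease site, was at 27.4 FPKM under Control SMO, 32.2 under LFPRLR SMO and 3.61 in the Treg values. Its log2 ratio was 0.23 by FPKM and -1.02 by exon-weighted value (14.6 and 7.19). It was in 1 piece under Control SMO and in 2 under LFPRLR SMO, and over the exon bases covered in both libraries its log2 ratio was -0.59. Psmb3 and Psmb4 were lower on both measures, with log2 ratios of -0.40 and -0.47 for Psmb3 and -0.94 and -0.75 for Psmb4. Psmb11, the beta subunit of the thymus, had no transcript in any set. It lies close to Psmb5 on chromosome 14.

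The base of the regulatory particle holds the ATPases Psmc1 to Psmc6, the scaffolds Psmd1 and Psmd2 and the ubiquitin receptor Psmd4. All 9 genes were listed in each set. They were at 7.25 to 25.8 FPKM under Control SMO and 4.79 to 22.2 FPKM under LFPRLR SMO, and their median log2 ratio was -0.30 by FPKM and -0.53 by exon-weighted value.
Psmd1 (chr1:86064387-86139151) was at 25.8 FPKM under Control SMO, 21.8 under LFPRLR SMO and 8.84 in the Treg values, with log2 ratios of -0.24 by FPKM and -0.13 by exon-weighted value. Psmd4 (chr3:95032694-95042614) was at 14.8, 10.2 and 4.28 FPKM in the same order, with log2 ratios of -0.52 and -0.55. Psmc5 (chr11:106256154-106263120) was at 7.40, 4.79 and 2.79 FPKM, with log2 ratios of -0.62 and -0.74. These genes were lower under LFPRLR SMO on both measures.
Psmc6 (chr14:45329788-45349705) was the base gene that was higher on both measures. It was at 7.25 FPKM under Control SMO, 11.7 under LFPRLR SMO and 7.08 in the Treg values, with log2 ratios of 0.69 by FPKM and 0.38 by exon-weighted value. With Control SMO 12 of its 13 introns were found, in a transcript of 3084 bases, and under LFPRLR SMO 13 of 13 in a transcript of 2154 bases.
Psmc1 (chr12:100110154-100123405) changed direction with the measure. It was at 10.5 FPKM under Control SMO, 22.2 under LFPRLR SMO and 6.57 in the Treg values, a log2 ratio of 1.07 by FPKM. By exon-weighted value it was at 21.8 under Control SMO and 10.3 under LFPRLR SMO, a log2 ratio of -1.07. With Control SMO the first 4 exons stood in a transcript of 296 bases at 72.7 FPKM, just short of the 300 bases that the FPKM measure asks for. With LFPRLR SMO the 5′ piece had 859 bases and 9.59 FPKM, and was counted. The remaining ATPases Psmc2, Psmc3 and Psmc4 were lower on both measures, with log2 ratios from -0.30 to -0.58 by FPKM, and the scaffold Psmd2 was nearly level, at -0.10 by FPKM and -0.12 by exon-weighted value.

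**Figure D3:**
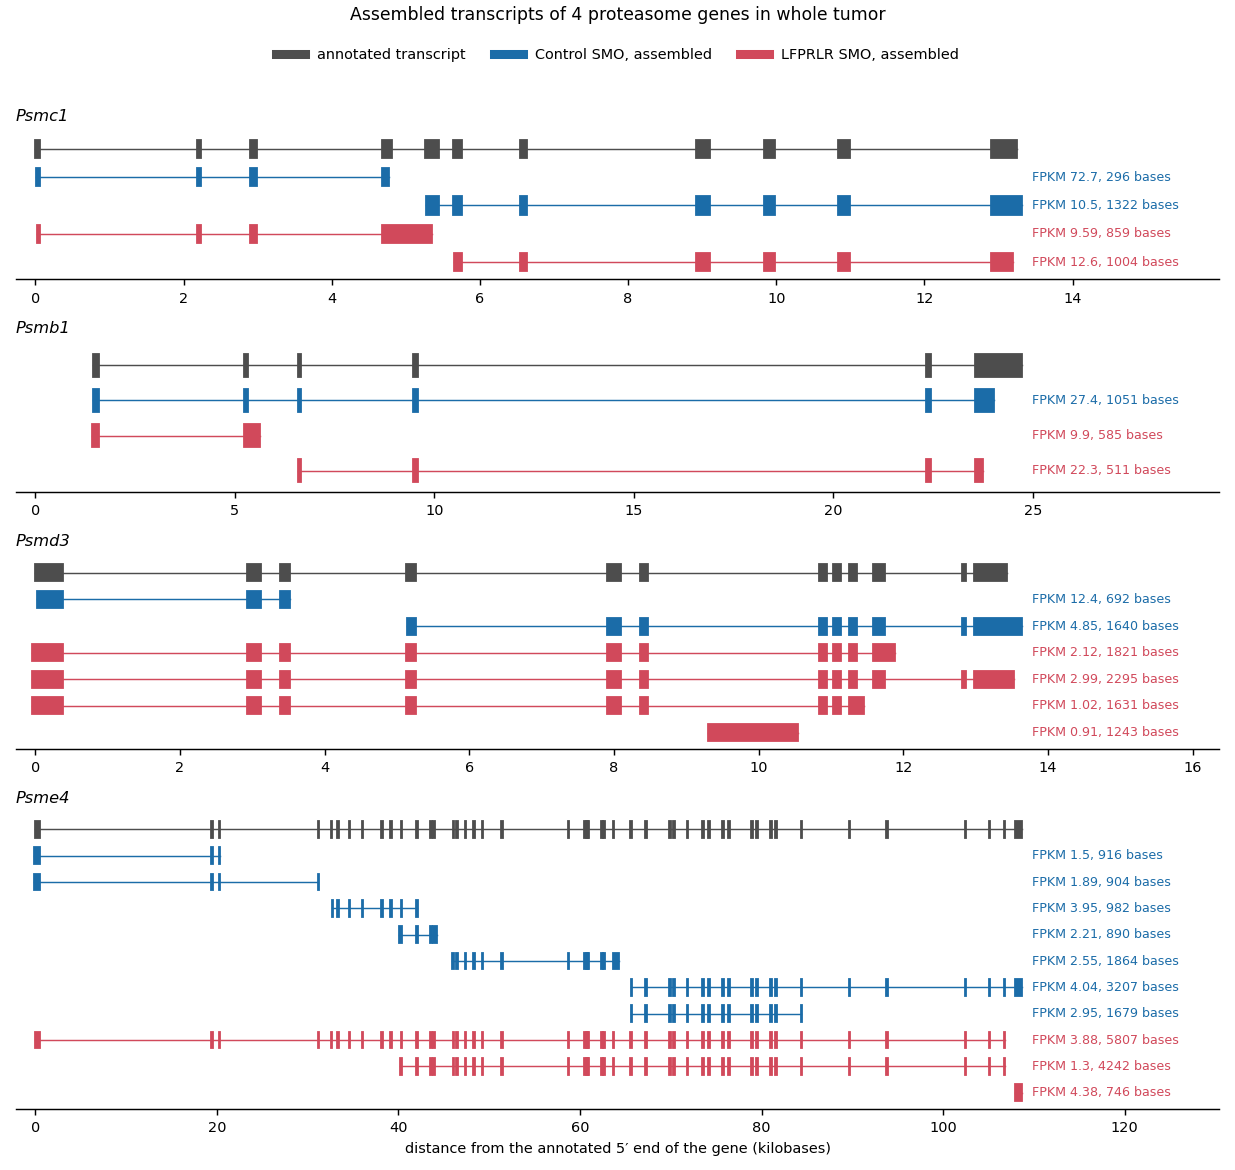
Assembled transcripts of Psmc1, Psmb1, Psmd3 and Psme4 in whole tumor against the annotated transcript (grey) on the distance from the 5′ end of the gene in kilobases, under Control SMO in blue and LFPRLR SMO in red. Boxes are exons and thin lines introns, and the FPKM and length of each transcript stand at its right. The 296-base piece of Psmc1 at 72.7 FPKM, the 2 pieces of Psmb1 under LFPRLR SMO and the 7 pieces of Psme4 under Control SMO can be seen.

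In the lid, 8 of 8 genes were lower under LFPRLR SMO on both measures. The median log2 ratio was -0.26 by FPKM and -0.40 by exon-weighted value, and the levels were 6.05 to 17.7 FPKM under Control SMO and 4.86 to 15.2 FPKM under LFPRLR SMO.
Psmd11 (chr11:80428615-80473248), a lid subunit that braces the core, was at 17.7 FPKM under Control SMO, 7.33 under LFPRLR SMO and 3.01 in the Treg values. The log2 ratio was -1.26 by FPKM and -0.48 by exon-weighted value. Psmd3 (chr11:98682554-98695979) gave a similar pair, at 17.3 and 7.05 FPKM in whole tumor, with log2 ratios of -1.28 and -0.31. With Control SMO both genes were broken into 2 pieces whose FPKM were added. Under LFPRLR SMO both had all introns in 1 transcript, but their FPKM were also sums, over 2 transcripts for Psmd11 and 4 for Psmd3. Over the exon bases covered in both libraries the log2 ratios were -0.66 for Psmd11 and -0.46 for Psmd3.
Psmd7 (chr8:107580381-107588464), the partner of the deubiquitinase, was at 17.4 FPKM under Control SMO, 15.2 under LFPRLR SMO and 1.38 in the Treg values, with log2 ratios of -0.19 and -0.24. Psmd14, the deubiquitinase itself, was at 13.4 and 11.5 FPKM in whole tumor, with log2 ratios of -0.21 and -0.50. Psmd13 (chr7:140881968-140898643), the lowest lid gene, was at 6.05 and 4.86 FPKM, with log2 ratios of -0.31 and -0.27. The differences of these lid genes were small on the FPKM scale.
Psmd6 (chr14:14112174-14120984) was at 8.11 FPKM under Control SMO and 7.44 under LFPRLR SMO and was not listed in the Treg values. Its log2 ratio was -0.12 by FPKM, -0.68 by exon-weighted value and -0.997 over the exon bases covered in both libraries, so its size depended on how 3 overlapping transcripts under LFPRLR SMO were counted. Psmd8 and Psmd12 were lower too, with log2 ratios of -0.20 and -0.63 by FPKM.

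Psmd5, Psmd9 and Psmd10 help to assemble the base and are not part of the finished particle. They were among the lowest proteasome genes in whole tumor. Psmd5 was at 5.45 FPKM under Control SMO and 6.11 under LFPRLR SMO, with log2 ratios of 0.16 by FPKM and -0.43 by exon-weighted value. Psmd10, also known as gankyrin, was at 2.16 and 3.25 FPKM, with log2 ratios of 0.57 and 0.24. Psmd9 was at 1.35 and 3.19 FPKM, a log2 ratio of 1.19, but its exon-weighted values were 0.953 and 0.819. Only Psmd10 was higher on both measures. None of the 3 was listed in the Treg values.

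Of the activators, Psme1 and Psme2 form a ring that interferon is known to raise and that aids antigen processing. Psme1 (chr14:55578123-55581529) was the highest member of all in whole tumor by FPKM, at 44.4 under Control SMO and 63.6 under LFPRLR SMO, and was at 6.20 in the Treg values. Its log2 ratio was 0.52 by FPKM and -0.47 by exon-weighted value (22.6 and 16.3). The gene was in 1 transcript under Control SMO and in 2 under LFPRLR SMO. Psme2 (chr14:55587441-55591113), its partner, was at 17.5 FPKM under Control SMO, 12.6 under LFPRLR SMO and 5.62 in the Treg values, with log2 ratios of -0.47 and -0.50. By exon-weighted value the partners were therefore lower by nearly the same amount.
Psme3 (chr11:101316213-101323537), the nuclear activator, was at 11.4 FPKM under Control SMO and 4.27 under LFPRLR SMO, with log2 ratios of -1.39 by FPKM and -0.18 by exon-weighted value. Psme4 (chr11:30771726-30880361), the large activator known for the breakdown of histones, was at 19.1 and 9.56 FPKM, with log2 ratios of -0.99 and 0.09. With Control SMO it was in 7 pieces and under LFPRLR SMO in 3. Neither was listed in the Treg values. For both genes most of the FPKM difference was absent on the exon-weighted scale.
Psme2b (chr11:48945354-48946190) is an intronless copy of Psme2, and reads that fit both cannot be told apart. It had no assigned transcript in whole tumor. Its exon lies inside a longer transcript of 1 exon assigned to no gene in each library, which gave exon-weighted values of 2.35 under Control SMO and 2.88 under LFPRLR SMO, and it was listed at 0 in the Treg values. The median log2 ratio of the activators was -0.73 over 4 genes by FPKM and -0.18 over 5 genes by exon-weighted value. Only the exon-weighted median holds Psme2b, at a log2 ratio of 0.28, so the 2 medians are not over the same genes.
Psmf1 (chr2:151715812-151744186), the inhibitor of the core, was at 5.97 FPKM under Control SMO and 2.38 under LFPRLR SMO, a log2 ratio of -1.29, and at 1.22 and 0.628 by exon-weighted value. Only 4 and 3 of its 7 introns were found. Psmc3ip was listed under Control SMO only, at 4.53 FPKM, and in neither other set.

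Proteasome genes were more often assembled in 1 piece than all genes, in a comparison not matched for level. The median of listed members was 14.6 FPKM under Control SMO, where that of all genes was 5.3. Under LFPRLR SMO the medians were 10.3 and 5.38 FPKM. Whether the shares differ among genes of like level was not tested. All introns of the annotated transcript stood in 1 assembled transcript for 19 of 40 listed members (47.5%) under Control SMO. Of all listed genes with more than 1 intron, 29.3% did so. The count of members was 22 of 39 (56.4%) under LFPRLR SMO, where 23.9% of such genes did. It was 16 of 32 in the Treg values, where 37.3% of such genes did. With Control SMO 357 of 394 member introns were found (90.6%), under LFPRLR SMO 359 of 387 (92.8%) and in the Treg values 227 of 299 (75.9%). The transcripts held 0, 1 and 0 introns that are not annotated for the members. The median read depth of the best-covered transcript of a member was 24.4 under Control SMO, 16.2 under LFPRLR SMO and 3.83 in the Treg values. The order of the members was closer between the whole tumor libraries by exon-weighted value than by FPKM. A gene's exon-weighted value is divided by the same annotated length in each library, which by itself can raise a correlation between libraries. How far it did so was not tested. Across 40 genes, which are not independent, the Pearson correlation of log2 exon-weighted values was 0.95 and the Spearman correlation 0.93. Across 39 genes those of FPKM were 0.81 and 0.75.

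The files labelled as tumor Tregs under Control SMO and under LFPRLR SMO held the same values for all 4838 transcripts, 43 of them of members, so they were used as 1 set and give no ratio. Of 12 T cell markers and 10 Treg markers, Foxp3 and Cd4 among them, 0 were listed in this set. All 12 monocyte and macrophage markers were listed, with a summed FPKM of 443, and 6 of 10 epithelial markers with 21.6. The values are therefore called by their label and are not read as those of Tregs.
Proteasome genes were listed more often than other genes in this shallow set. Of 40 members with an FPKM of at least 1 in Control SMO whole tumor, 32 were listed above 0, where 27.9% of all such genes were. Among genes at 10 to 35 FPKM in Control SMO whole tumor, a range chosen after the members' values were seen, 25 of 27 members (92.6%) were listed, where 48.0% of all genes were. All 14 listed core genes, all 9 base genes and 7 of 8 lid genes had a value, and the 3 chaperones, Psme3, Psme4, Psmf1 and Psmc3ip had none.
Psmd2 (chr16:20651652-20663414), the base scaffold that binds ubiquitin carriers, was highest by FPKM in this set, at 13.9, in 3 pieces. By exon-weighted value Psma6 was highest, at 7.12, followed by Psmb4 at 7.06. The lowest listed member was Psmd7 at 1.38 FPKM. The log2 levels of 32 members in the Treg values and in Control SMO whole tumor had a Pearson correlation of 0.62 by exon-weighted value and 0.13 by FPKM. The annotated length that divides a gene's exon-weighted value is the same in both sets, which by itself can raise the 0.62. These levels come from different programs normalised separately, so their order is a description.

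**Figure D4:**
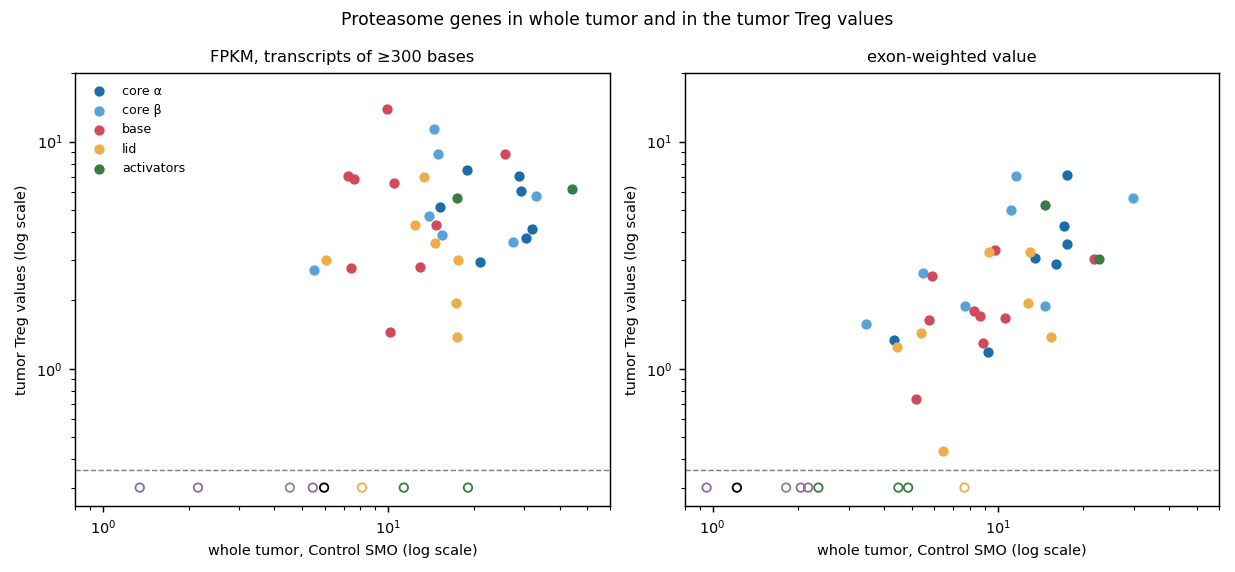
Each member in Control SMO whole tumor (x) and in the tumor Treg values (y), both on log axes, by FPKM of transcripts of at least 300 bases (left) and by exon-weighted value (right), coloured by group, 1 pooled library per axis. Open circles under the dashed line are members with no value or 0 in the Treg values. The points scatter on the left (Pearson correlation 0.13 on the log2 scale) and order more closely on the right (0.62). On the right both axes are divided by the same annotated length of each gene.

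Genes around the proteasome were counted in lists. The interferon-induced protease genes that replace the constitutive ones were all lower by FPKM. Psmb8, which replaces Psmb5, was at 31.2 FPKM under Control SMO, 8.31 under LFPRLR SMO and 7.07 in the Treg values, and at 8.84 and 5.40 by exon-weighted value in whole tumor. Psmb9 was at 4.20 and 1.92 FPKM, and at 1.33 and 0.587 by exon-weighted value. Psmb10 was nearly level, at 9.94 and 9.49 FPKM and at 7.78 and 8.25 by exon-weighted value. None of the 3 was lower by a factor of 2 with values of at least 1 on both measures.
Among subunits that the naming rule leaves out, Sem1, a small lid subunit, was at 144 and 149 FPKM and at 25.3 and 25.5 by exon-weighted value. Adrm1, a ubiquitin receptor, was at 5.31 and 4.06 FPKM, but at 0.952 and 1.51 by exon-weighted value, the other direction. Among assembly chaperones of the core, Pomp was at 17.0 and 9.94 FPKM and at 3.94 and 2.31 by exon-weighted value. Psmg2 was at 2.64 and 1.97 FPKM. Psmg1 at 2.50 and Psmg4 at 4.64 FPKM were listed under Control SMO only, Psmg3 was listed only in the Treg values, at 1.52 FPKM, and Paaf1 was not found under that symbol. By exon-weighted value Psmg1 was at 2.41 under Control SMO and 0.318 under LFPRLR SMO, and Psmg4 at 3.55 and 0. Only Pomp and Psmg2 were listed in both whole tumor libraries, and neither differed by a factor of 2 on both measures.
The transcription factor Nfe2l1, the enzymes that process it and Akirin2 were each lower by less than a factor of 2. Nfe2l1 was at 9.56 and 8.13 FPKM, Ddi2, the protease that activates it, at 9.73 and 8.90, Ngly1, which removes its glycans, at 4.76 and 3.36, and Akirin2, a nuclear import factor of proteasomes, at 8.95 and 5.45. Of the 13 genes of proteasome-associated proteins, 0 were lower and 0 higher by a factor of 2 on both measures, and their median log2 ratio was 0.09 by FPKM and -0.29 by exon-weighted value.
Among genes for ubiquitin and its activating enzymes, Ubb was at 107 and 47.7 FPKM and at 72.6 and 43.8 by exon-weighted value. Rps27a was at 7.54 and 19.0 FPKM but at 80.8 and 21.5 by exon-weighted value. The activating enzymes Uba1 and Uba6 were at 17.8 and 14.3 FPKM and at 8.13 and 5.37 FPKM. Ubiquitin genes have near-identical copies, so their values are uncertain.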

How the data were processed

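RNAseq of 4 libraries was used, each of RNA pooled from 6 mice and depleted of rRNA. The authors deposited transcript lists on mm10 with an FPKM per transcript, assembled by Cufflinks for whole tumor and by StringTie 1.2.3 for the sorted cells. The submitters' processing notes also name HISAT2 2.0.4 and Cuffdiff 2.0.2. The version of Cufflinks and read counts are not given in the sources used here. The deposited score of relative abundance was not used. Transcripts were assigned to GENCODE M21 genes (GRCm38) by deposited symbol (sorted cells), then a shared intron, then at least 50% of exon bases. This left 3815 of 22481, 11666 of 31908 and 295 of 4838 transcripts without a gene. The median over transcripts of the read depth per FPKM unit was 1.88, 1.75 and 0.947, which limits low values. FPKM was summed over transcripts of at least 300 bases. The exon-weighted value multiplied each FPKM by the exon bases shared with the gene and divided by the longest annotated transcript. For ratios 0.1 was added to each value before taking log2 of LFPRLR SMO over Control SMO, which understates low genes. With 1 library per group no test was made.

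The members and lists were chosen with earlier results of these data known. Named members were the 2 highest and 2 lowest of each group by FPKM with Control SMO, members beyond a factor of 2 on both measures, the protease genes Psmb5, Psmb6 and Psmb7, activators, the inhibitor and members without a value. Others were named after their values were seen. Psme3ip1 is not a symbol of the annotation and was not counted. Some genes of the ubiquitin list are not reported here. Assignment was tested on intact annotated transcripts, and counting on simulated gene values changed by a known factor. Neither test covered genes that are broken differently in the 2 libraries. Python 3.11.15, numpy 2.4.6, scipy 1.17.1 and matplotlib 3.10.9 were used.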

Additional observations from a re-analysis of the deposited data

How the results depend on the processing

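The count of members lower by a factor of 2 (5 by FPKM) became 3 with values of at least 5, 2 by exon-weighted value, 13 with a factor of 1.5, 1 with a factor of 3 and 1 over exon bases covered in both libraries, a measure chosen after seeing the data. The count of members higher (2) became 1 with a pseudocount of 1, with values of at least 5, with transcripts of any length, with the most abundant transcript only, by coverage and over shared exon bases, and 0 by exon-weighted value and with a factor of 3. The median log2 ratio of the activators (-0.73) became -0.47 with values of at least 5, -0.47 with the most abundant transcript, -0.18 by exon-weighted value and -0.26 over shared exon bases, and that of the lid (-0.26) became -0.65 with the most abundant transcript. The exon-weighted and shared-base medians of the activators also hold Psme2b, which the FPKM median does not. Psmc1 (1.07) reversed to -1.90 with transcripts of any length, -1.07 by exon-weighted value and -0.99 over shared exon bases, where its 296-base piece is counted. In TPM the median of all genes moved from -0.09 to 0.06, that of the members to -0.30, and 29 of 39 were below 0. Over these settings the member median stayed between 0.31 and 0.40 below that of all genes. Of the other values, 80 group or count values and 452 single gene values stayed within 0.25 on the log2 scale or a factor of 1.5 for counts, some of those near 0 with a change of sign, and 43 single gene values moved by more. No replicate could be left out, since each group has 1 library.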
